A study of Mus musculus with 6 samples.

Results

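Genes of the translation initiation factors (eIFs) and elongation factors (eEFs) were followed in liver RNA of mice homozygous for the Lmna G609G allele. Members were the probe sets that the platform annotation gives a single symbol starting with Eif or Eef and a digit, leaving out Eif2s3y. They came to 70 probe sets for 60 genes, of 35512 probe sets in all, and 69 probe sets for 59 genes were bright enough to be tested. The series compared 3 LmnaG609G/G609G knock-in mice (numbered 1, 3 and 5 in the labels) with 3 wild-type, Lmna+/+ mice (2, 4 and 6), with 1 array per mouse. All were C57BL/6 females, 3 months old, from which food was withheld for 6 h. The allele is a point change in the lamin A/C gene that leaves the amino acid as it was, alters splicing, and models Hutchinson-Gilford progeria. The labels give each array as 1 animal, do not say whether mice were littermates, and describe whole liver, so the p-values measure the spread between these mice. In such bulk samples, fewer cells of a type and less RNA per cell cannot be told apart.

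Initiation begins when eIF2, bound to GTP and the initiator tRNA, joins eIF1, eIF1A, eIF3 and eIF5 on the small ribosomal subunit. The eIF4 factors unwind the capped end of the mRNA so that this complex can bind and scan, and eIF5B joins the large subunit. Elongation is driven by eEF1A, which brings aminoacyl-tRNAs, and eEF2, which moves the ribosome along. Control falls mainly on eIF2, which 4 stress kinases phosphorylate and eIF2B recharges, on the cap-binding protein eIF4E, which the 4E-binding proteins hold back until mTOR phosphorylates them, and on eEF2, which its own kinase restrains.

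Short stretches of sequence at the starts of 5 of these genes are shown because they carry letters by which translation factor genes and interferon-induced genes are usually recognised. RefSeq start windows on GRCm38.p6, from 250 bases before to 50 after each annotated start, were found for 47 of the 60 member genes (62 windows). Many mRNAs of the translation machinery begin with an unbroken run of pyrimidines, through which mTOR controls their translation. A run of at least 8 C or T bases that begins with C within 5 bases of the start was searched for. It was present at 6 member genes (Eef1a1, Eif2b2, Eif2b5, Eif2s3x, Eif3f and Eif3l), in 6 of the 62 member windows and in 4.37% of all 32851 windows. The interferon-response letters were GAAA repeated after a gap of 2 bases, searched on both strands. They were present at 3 member genes (Eif2ak2, Eif2s3x and Eif3a), in 3 of the 62 member windows and in 3.44% of all windows. The ATF4-response letters TGATGNAA, also on both strands, were present at Eef2k and Eif2s3x, in 2 of the 62 member windows and in 3.97% of all windows. Not every start window of Eef2k held them. The searches were separate, so matches to different motifs could overlap. For Eif3f (chr7:108934400-108934429, plus strand), Eif3l (chr15:79075208-79075237, plus strand), Eef1a1 (chr9:78481710-78481739, minus strand) and Eif2s3x (chrX:94212637-94212666, minus strand), the 15 bases on either side of the start are printed 5′ to 3′ with the pyrimidine run in capitals. For Eif2ak2 (chr17:78882535-78882564, minus strand) the 30 bases around the interferon-response letters are printed, with the match in capitals, beginning at transcribed base 19.
Eif3f: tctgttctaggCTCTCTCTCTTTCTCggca
Eif3l: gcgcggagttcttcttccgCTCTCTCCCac
Eef1a1: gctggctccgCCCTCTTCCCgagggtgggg
Eif2s3x: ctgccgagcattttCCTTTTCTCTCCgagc
Eif2ak2: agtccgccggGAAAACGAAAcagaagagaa
These matches describe letters in a window and locate no binding site. Of the 4 genes shown for the pyrimidine run, Eif3f was higher in knock-in liver, Eif3l was lower, and Eef1a1 and Eif2s3x did not pass the test, with the values given below.

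Values are array intensities on a linear scale, and changes are differences of log2(intensity + 16), knock-in minus wild-type, with their standard error (SE). A probe set was called when its limma adjusted p (Benjamini-Hochberg over all 26664 tested probe sets) was below 0.05. Of the 69 member probe sets, 20 (17 genes) were called higher and 6 (5 genes) lower in knock-in liver, which is 37.7% called, against 25.9% of all tested probe sets (15.0% higher and 10.9% lower). Their median log2 change was 0.15, against 0.03 for all tested probe sets, and 53 of the 69 changes were above 0. The genotypes did not overlap at 41 of the 69 (59.4%), against 41.2% of all tested probe sets. Most changes were small. Calls of at least 1.5-fold numbered 4 higher and 4 lower among the members, while 7.83% and 6.65% of all tested probe sets were that much higher and lower.

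The excess of higher calls depended on scaling and on single mice. With each array centred on its median, 10 members were called higher and 7 lower, 24.6% of the members beside 24.6% of all tested probe sets. Higher calls then made up 58.8% of member calls and 47.8% of calls over all probe sets, while on the deposited scale they made up 76.9% and 57.8%. The number called higher was 6 without knock-in mouse 1, 9 without knock-in mouse 5, 6 without wild-type mouse 2, 10 without wild-type mouse 4 and 8 without wild-type mouse 6. Over all probe sets, 4237 were called without knock-in mouse 1, 4493 without wild-type mouse 2 and 4559 without wild-type mouse 6, where 6904 were called over 6 mice. The share called was 15.9% of members and 15.9% of all probe sets without knock-in mouse 1, and 15.9% and 16.9% without wild-type mouse 2. It was 36.2% and 29.1% without knock-in mouse 3, 20.3% and 19.5% without knock-in mouse 5, 23.2% and 20.0% without wild-type mouse 4, and 18.8% and 17.1% without wild-type mouse 6. There were 11 member probe sets, 6 higher and 5 lower, that kept their call under all 15 alternatives run. They belong to Eif1a, Eif2b3, Eif2ak3, Eif3h, Eif4enif1 and Eif5, which were higher, and to Eif2ak2, Eif3l, Eif4b and Eef2k (both probe sets), which were lower. Members were also bright, with a median mean intensity at the 82.0th percentile of all probe sets. Among probe sets at or above the 50th percentile, 43.8% of 64 member probe sets and 37.1% of all were called.

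**Figure D1:**
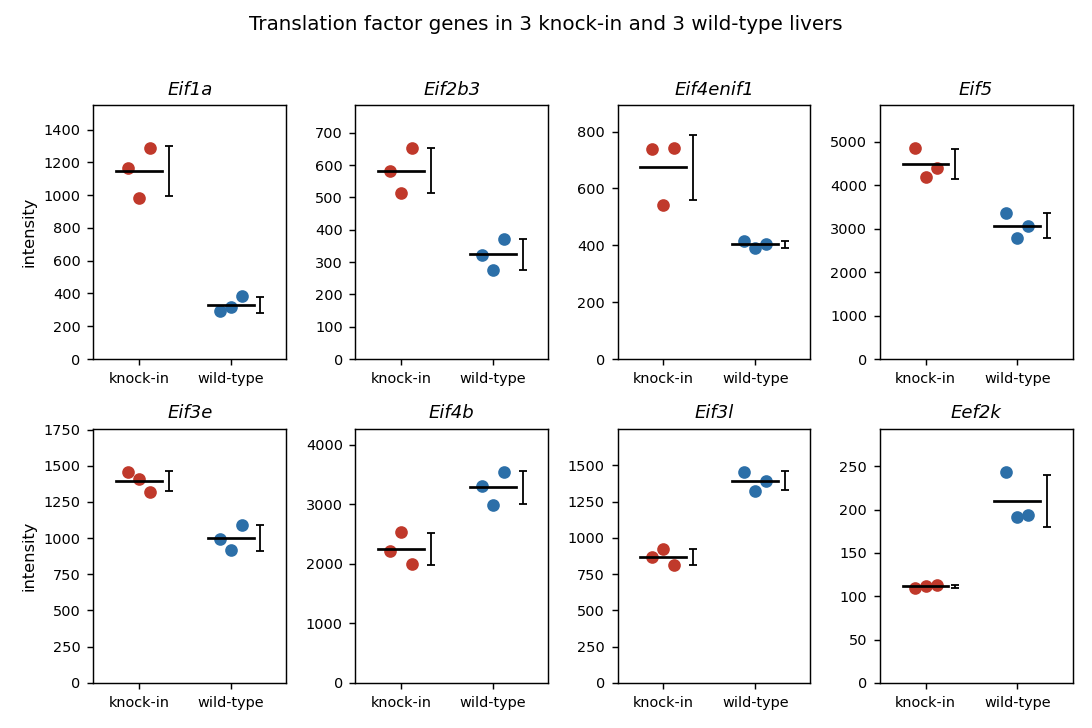
Intensity (linear scale, each axis from 0) of 8 translation factor genes in 3 knock-in livers (red, left) and 3 wild-type livers (blue, right). Points are mice, horizontal lines are means and bars are standard deviations. Eif1a, Eif2b3, Eif4enif1, Eif5 and Eif3e lie above wild-type in every knock-in mouse, and Eif4b, Eif3l and Eef2k lie below it.

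Array-wide facts bear on all of these values. Array medians lay between 97 and 104 intensity units. Taken in pairs, arrays of knock-in mice correlated at 0.981 to 0.990 across probe sets (themselves not independent), arrays of wild-type mice at 0.989 to 0.992, and arrays of unlike genotype at 0.936 to 0.968. The Lmna probe set does not separate the splice forms, so it does not check the genotype, and its log2 change was -0.17 ± 0.13 (SE; limma adjusted p = 0.40). The liver label was borne out by hepatocyte markers, whose summed intensity over 8 genes was 106735 to 114461 in knock-in and 101201 to 104040 in wild-type mice. Of these 8, Hnf4a and Tat were called higher, Tat not without knock-in mouse 1 (limma adjusted p = 0.0511). Over all tested probe sets, 25.9% were called (15.0% higher and 10.9% lower). The hepatocyte (25%), Kupffer cell and macrophage (12.5%), lymphocyte (25%) and cholangiocyte (0%) markers did not exceed that share. The sinusoidal endothelial (71.4%), neutrophil (60%), stellate (33.3%) and erythroid (50%) lists, of few markers each, lay above it. Of 8 Kupffer cell and macrophage markers, 1 was called lower, with a summed intensity of 2175 to 4197 in knock-in and 3734 to 6361 in wild-type mice. The number lower was 0 without knock-in mouse 1 or 5 or wild-type mouse 2 or 4, and 2 without knock-in mouse 3 or wild-type mouse 6. Of 7 tested sinusoidal endothelial probe sets, 1 was called higher and 4 lower, with a summed intensity of 4858 to 6389 in knock-in and 6112 to 6648 in wild-type mice. For these, the number lower was 1 without knock-in mouse 1 and 0 without wild-type mouse 2 or 6, and the number higher was 0 without knock-in mouse 5. Of 5 neutrophil markers, 3 were called higher, with a sum of 386 to 425 in knock-in and 273 to 312 in wild-type mice. The number higher was 2 without knock-in mouse 1 or 5 or wild-type mouse 4. The 3 called were dim, and with a stricter intensity filter 1 neutrophil marker was tested and 0 were called. Retnlg, among the 3, read 96, 76 and 89 in knock-in mice. It read 34, 37 and 34 in wild-type mice, each below the mean intensity required for testing. Cholangiocyte markers summed to 368 to 394 in knock-in and 367 to 391 in wild-type mice, with 0 called of 4. Of 6 stellate cell markers, Dcn was called higher (log2 change 0.49 ± 0.09; limma adjusted p = 0.0067) and Lrat lower (-1.16 ± 0.21; limma adjusted p = 0.0071), with a sum of 7454 to 8821 in knock-in and 6521 to 7427 in wild-type mice, and 2 were lower without knock-in mouse 3 or with array weights. Of 4 tested lymphocyte markers, Cd79b was called lower (-0.46 ± 0.09; limma adjusted p = 0.0088), with a sum of 344 to 374 in knock-in and 371 to 434 in wild-type mice, and 2 were lower without knock-in mouse 3 or with array weights. Of 2 erythroid markers, Alas2 was called lower (-0.90 ± 0.21; limma adjusted p = 0.019), though not without wild-type mouse 2 or 6 (limma adjusted p = 0.0612 to 0.0677), with a sum of 265 to 383 in knock-in and 426 to 564 in wild-type mice. The part of these cell types in the changes of the translation factors was not tested.

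Among factors that prepare the small subunit, Eif1a changed most, and no other eIF1 or eIF1A gene was called. Eif1a encodes eIF1A, which helps the small subunit accept the initiator tRNA and scan. It read 1163, 985 and 1289 in knock-in mice, against 293, 315 and 386 in wild-type mice. Every knock-in value lay far above the highest wild-type value. The log2 change was 1.74 ± 0.14 (SE, n = 3 mice per genotype; 3.35-fold; limma adjusted p = 0.00051), the largest rise among the members. Its X-linked counterpart Eif1ax, which encodes a nearly identical protein, read 441, 506 and 564 in knock-in and 397, 460 and 395 in wild-type mice. These ranges overlap, and the log2 change of 0.26 ± 0.12 did not pass (limma adjusted p = 0.17; 95% interval -0.03 to 0.54). The Eif1a change exceeded the Eif1ax change by 1.48 (exact two-sided permutation test, p = 0.1, the smallest that 3 mice against 3 allow). It is 1 of 5 such differences computed after the values were seen, so their p-values are not separate evidence. All 5 have a Benjamini-Hochberg adjusted p of 0.1. Further probe sets carry Eif1a together with other symbols, so its signal may be shared with similar copies, and its value is uncertain to that extent. Eif1b, which encodes a close relative of the start-codon selector eIF1, changed by 0.23 ± 0.10, and Eif1ad, of an eIF1A-domain protein, by 0.23 ± 0.13, and neither was called (limma adjusted p = 0.15 and 0.24).

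The eIF2 subunit genes Eif2s2 and Eif2s3x were not called, and Eif2s1 had no single-symbol probe set. Of the 5 subunit genes of its recharging factor eIF2B, 1 was called (20%, against 25.9% of all tested probe sets). Eif2s2, of the beta subunit, had log2 changes of 0.18 ± 0.17 and 0.12 ± 0.10 at its 2 probe sets, and Eif2s3x, of the gamma subunit, had 0.12 ± 0.09 (limma adjusted p = 0.40 to 0.49). Eif2s3x read 2536, 2687 and 2567 in knock-in and 2404, 2179 and 2598 in wild-type mice, which overlap. Eif2b3 encodes the gamma subunit of eIF2B, which sits in its catalytic part. It read 581, 515 and 654 in knock-in mice, against 323, 276 and 373 in wild-type mice, without overlap, giving a log2 difference of 0.82 ± 0.14 (1.77-fold higher; limma adjusted p = 0.0057). Eif2b5, of the catalytic epsilon subunit, changed by 0.12 ± 0.11, Eif2b1 by 0.17 ± 0.09 and Eif2b4 by -0.20 ± 0.12, none of them called. Eif2b2 changed by 0.42 ± 0.15 (limma adjusted p = 0.078) and was called without knock-in mouse 3 (limma adjusted p = 0.0139). Eif2d, whose product can place tRNAs on the ribosome without eIF2, read 407, 388 and 388 in knock-in and 613, 468 and 557 in wild-type mice. It fell by 0.45 on the log2 scale (SE 0.12; limma adjusted p = 0.029), and the call was lost without knock-in mouse 1 or 5 or wild-type mouse 2 or 6 (limma adjusted p = 0.0726 to 0.1). Eif2a, of another initiator tRNA factor, changed by 0.09 ± 0.09.

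The eIF2 kinases did not move as a group. Of the 4 genes, Eif2ak3 and Eif2ak4 rose, Eif2ak2 fell and Eif2ak1 was not called. Eif2ak3 encodes PERK, the kinase of the endoplasmic reticulum that responds to unfolded proteins. It read 489, 417 and 481 in knock-in mice, against 298, 316 and 286 in wild-type mice, giving a log2 difference of 0.60 ± 0.10 (1.51-fold higher; limma adjusted p = 0.0057). Eif2ak4, of the amino acid sensor GCN2, read 359, 331 and 371 in knock-in and 281, 273 and 262 in wild-type mice, a log2 change of 0.36 ± 0.09 (limma adjusted p = 0.025). Neither gene's genotypes overlap. The Eif2ak4 call was lost without knock-in mouse 1 or 5 or any 1 of the 3 wild-type mice (limma adjusted p = 0.0593 to 0.1). Eif2ak2 encodes PKR, which double-stranded RNA activates and interferon induces. Its start holds the interferon-response letters printed above, which were also found at Eif3a, called higher, and at Eif2s3x, not called. Eif2ak2 read 115, 132 and 106 in knock-in mice, against 186, 162 and 208 in wild-type mice, all 3 knock-in values below the lowest wild-type value. It fell by 0.59 on the log2 scale (SE 0.12; 1.5-fold lower; limma adjusted p = 0.010). Eif2ak1, of the heme-regulated kinase HRI, read 877, 804 and 861 in knock-in and 766, 799 and 756 in wild-type mice, a log2 change of 0.13 ± 0.09 (limma adjusted p = 0.35). The Eif2ak3 change exceeded that of Eif2ak2 by 1.19 (exact two-sided permutation test, p = 0.1, the smallest possible, for a pair picked after its values were seen).

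Genes that act on these kinases or on phosphorylated eIF2 moved in both directions, 3 of 8 tested probe sets higher and 1 lower. Of all tested probe sets, 15.0% were called higher and 10.9% lower. Impact, whose product restrains GCN2, read 957, 1054 and 815 in knock-in mice, against 434, 369 and 378 in wild-type mice, a log2 change of 1.22 ± 0.13 (limma adjusted p = 0.0010). Nck1, of an adaptor linked to eIF2 dephosphorylation, rose by 0.73 ± 0.12 (limma adjusted p = 0.0053). Ppp1r15a, of the stress-induced partner of the eIF2 phosphatase, read 463, 249 and 433 in knock-in and 189, 175 and 202 in wild-type mice. Its rise of 0.91 ± 0.22 (limma adjusted p = 0.020) was lost without knock-in mouse 1 or 5 or wild-type mouse 2 or 4 (limma adjusted p = 0.0596 to 0.0694). Ppp1r15b, of the constitutive partner, was called lower at its dimmer probe set (-0.41 ± 0.09, limma adjusted p = 0.016), though not without knock-in mouse 1 (limma adjusted p = 0.0592), and not called at its brighter one (-0.33 ± 0.10, limma adjusted p = 0.053). The number of these called lower was 0 without knock-in mouse 1 and 2 without knock-in mouse 3 and with quantile normalization, centred arrays, a filter at the 50th percentile, no trend or array weights. The number higher was 2 without knock-in mouse 1 or 5 or wild-type mouse 2 or 4. Atf4, the transcription factor made when eIF2 is phosphorylated, rose by 0.80 ± 0.14 (limma adjusted p = 0.0065). Of 16 tested probe sets for Atf4 and its targets, 7 were called higher and 1 lower, against 15.0% and 10.9% of all tested probe sets. The 8 not called changed by -0.22 to 0.24. The number higher was 6 without any 1 mouse other than knock-in mouse 3, with centred arrays or without the filter. With a filter at the 50th percentile it was 6 of 11. The number lower was 2 without knock-in mouse 3. The higher ones with the smallest p were Cth, of an enzyme of cysteine synthesis (1.11 ± 0.06; limma adjusted p = 0.00012), Sesn2, of an mTOR-restraining stress protein (1.94 ± 0.24; limma adjusted p = 0.0019), and Vldlr, of a lipoprotein receptor (0.66 ± 0.09; limma adjusted p = 0.0026). Chac1, of a glutathione-degrading enzyme, and the transcription factor gene Atf3 followed (1.27 ± 0.18 and 2.08 ± 0.34; limma adjusted p = 0.0032 and 0.0048). The lower one, named after its value was seen, was the transcription factor gene Atf5 (-0.61 ± 0.12; limma adjusted p = 0.010).

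**Figure D2:**
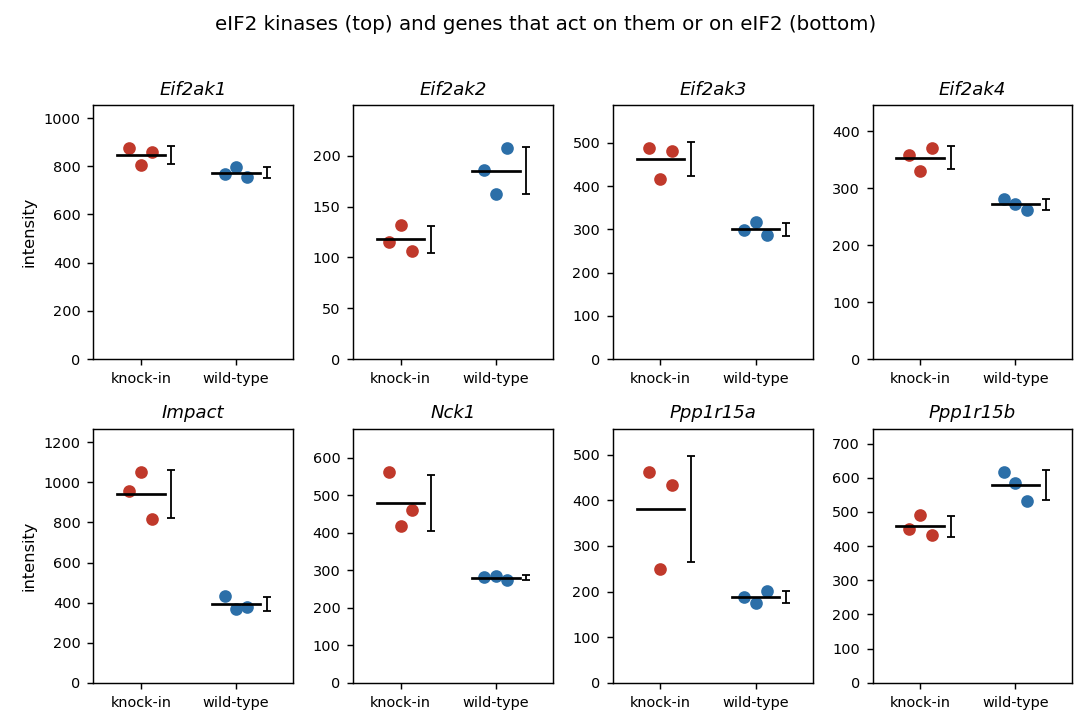
Intensity (linear scale, each axis from 0) of the 4 eIF2 kinase genes (top) and 4 genes acting on the kinases or on eIF2 (bottom) in 3 knock-in livers (red, left) and 3 wild-type livers (blue, right). Points are mice, lines are means and bars are standard deviations. Eif2ak2 lies below wild-type and Eif2ak3 and Eif2ak4 above it. For Ppp1r15b the brighter probe set is drawn, which was not called.

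The eIF3 genes mostly leaned upward, with Eif3l and the uncalled Eif3k as the exceptions. The eIF3 scaffold on the small subunit recruits the mRNA. Of 12 tested probe sets for 11 genes, 5 were called higher and 1 lower (50%), against 25.9% of all tested probe sets called. The genotypes did not overlap at 10 (83.3%), against 41.2% of all tested probe sets. Knock-in mice lay below wild-type mice at Eif3l and Eif3k among these. The median log2 change was 0.27. Eif3e read 1460, 1407 and 1318 in knock-in and 992, 917 and 1092 in wild-type mice (log2 change 0.48 ± 0.10; limma adjusted p = 0.013). Eif3h read 3790, 3802 and 3927 in knock-in and 2911, 3025 and 3072 in wild-type mice (0.35 ± 0.07; limma adjusted p = 0.011). Eif3f, with the long pyrimidine run at its start, read 2151, 2034 and 2248 in knock-in and 1608, 1688 and 1644 in wild-type mice (0.38 ± 0.08; limma adjusted p = 0.015). The gaps between genotypes in these 3 genes were narrow but clear of the spread among mice. Eif3a and Eif3b, of the subunits around which the complex assembles, changed by 0.34 ± 0.08 (limma adjusted p = 0.024) and 0.38 ± 0.12 (limma adjusted p = 0.049). Eif3l, of a peripheral subunit that pairs with that of Eif3k, went the other way. It read 866, 923 and 812 in knock-in mice, against 1458, 1327 and 1396 in wild-type mice, and fell by 0.68 on the log2 scale (SE 0.09; 1.6-fold lower; limma adjusted p = 0.0028). Its start also carries a pyrimidine run, as printed above. Eif3k read 731, 760 and 766 in knock-in and 861, 800 and 832 in wild-type mice, which do not overlap, but its change of -0.14 ± 0.09 was not called (limma adjusted p = 0.30). Eif3c, Eif3d, Eif3i and both probe sets of Eif3m were not called (0.01 to 0.40).

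The eIF3 calls varied with the mice included. The call of Eif3e was lost without knock-in mouse 1 or wild-type mouse 2 (limma adjusted p = 0.0504 to 0.0592). Those of Eif3a (limma adjusted p = 0.0802 to 0.0895) and Eif3f (limma adjusted p = 0.0604 to 0.0625) were lost without knock-in mouse 1 or wild-type mouse 2 or 6. That of Eif3b was lost without any 1 mouse other than knock-in mouse 3 (limma adjusted p = 0.0859 to 0.158), and with centred arrays, no filter or a robust prior. The number of eIF3 probe sets called higher was 1 without knock-in mouse 1 or wild-type mouse 2, and 2 without wild-type mouse 6. The difference between the Eif3e and Eif3l changes was 1.15 (exact two-sided permutation test, p = 0.1, the smallest possible, for a pair picked after its values were seen).

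**Figure D3:**
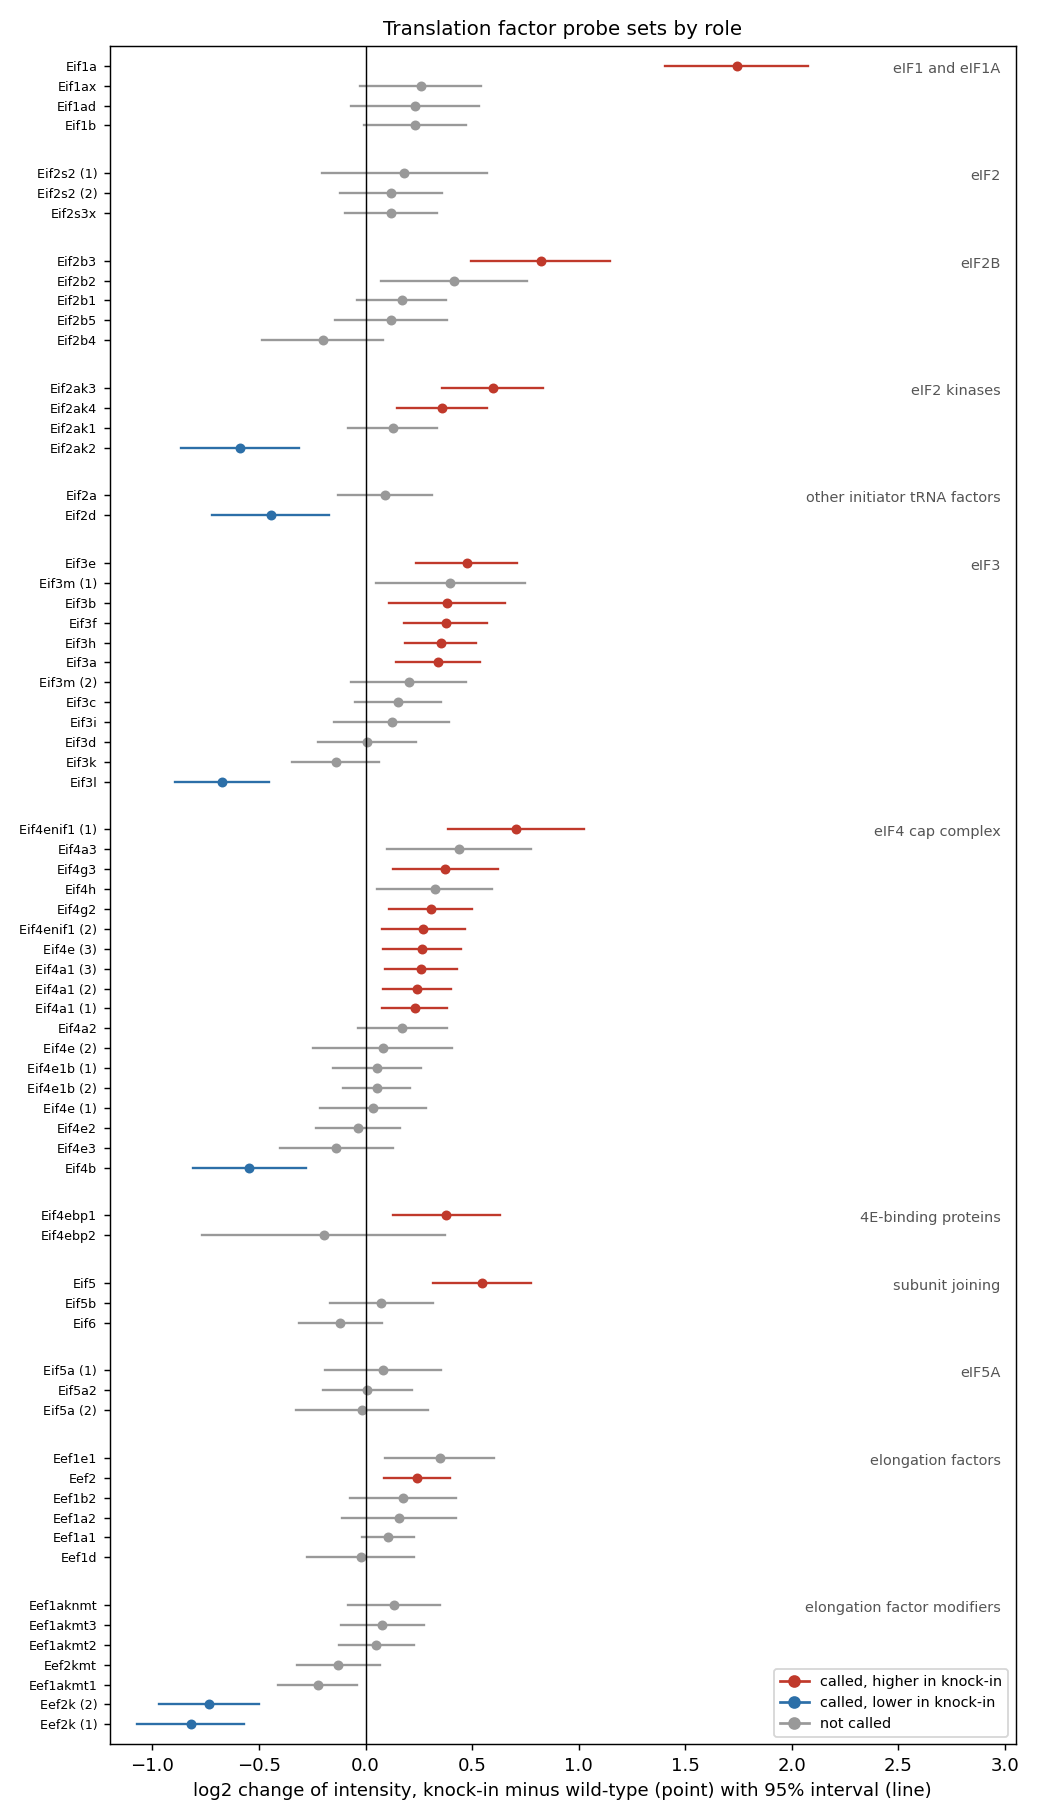
Log2 change of intensity (knock-in minus wild-type, horizontal axis) with its 95% interval for the 69 tested probe sets, grouped by role, where a number in brackets ranks the probe sets of a gene by brightness. Red marks called higher, blue called lower and grey not called. Most points lie just right of 0, Eif1a lies at 1.74, and the blue points are Eif2ak2, Eif2d, Eif3l, Eif4b and both probe sets of Eef2k.

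In the cap-binding and unwinding machinery, 8 of 18 tested probe sets were called higher and 1 lower, with a median log2 change of 0.24. Of all tested probe sets, 15.0% were called higher and 10.9% lower. Eif4enif1 encodes 4E-T, which binds eIF4E and takes it into the nucleus and into cytoplasmic granules of stored mRNA. Its brighter probe set read 737, 542 and 743 in knock-in mice, against 415, 391 and 403 in wild-type mice, without overlap, giving a log2 difference of 0.71 ± 0.14 (1.63-fold higher; limma adjusted p = 0.0093). Its dimmer one changed by 0.27 ± 0.08 (limma adjusted p = 0.0496). Eif4b, whose product stimulates the helicase eIF4A, read 2215, 2527 and 2002 in knock-in mice, against 3303, 2992 and 3548 in wild-type mice. It fell by 0.55 on the log2 scale (SE 0.11; 1.46-fold lower; limma adjusted p = 0.012). Eif4h, of a related helper, changed by 0.32 ± 0.11 and was not called (limma adjusted p = 0.078), but was called without knock-in mouse 3 (limma adjusted p = 0.0455).

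The helicase gene Eif4a1 was slightly higher at each of its 3 probe sets, by 0.23 ± 0.07, 0.24 ± 0.07 and 0.26 ± 0.07 (limma adjusted p = 0.034 to 0.039). The brightest read 6391, 6468 and 6495 in knock-in and 5238, 5572 and 5689 in wild-type mice, a narrow gap with no overlap. These sets may share target sequence, so they are not separate evidence. Its relative Eif4a2 changed by 0.17 ± 0.09 and was not called. Eif4a3, of the exon junction complex, changed by 0.44 ± 0.14 (limma adjusted p = 0.062) and was called without wild-type mouse 6 or with a filter at the 50th percentile (limma adjusted p = 0.0209 and 0.0452). Of the scaffold genes, Eif4g2, whose product lacks the eIF4E-binding part, changed by 0.31 ± 0.08 and Eif4g3 by 0.37 ± 0.11 (limma adjusted p = 0.032 and 0.036). The cap-binding gene Eif4e gave a call at the dimmest of its 3 probe sets (0.26 ± 0.08, limma adjusted p = 0.044) and none at the brighter sets (0.03 ± 0.11 and 0.08 ± 0.14). The brightest read 405, 340 and 340 in knock-in and 340, 343 and 373 in wild-type mice, which overlap. Eif4e2 and Eif4e3, of alternative cap-binding proteins, changed by -0.04 ± 0.08 and -0.14 ± 0.11, and Eif4e1b by 0.06 ± 0.09 and 0.05 ± 0.07, none of them called. Eif4a3l1 averaged 37 in knock-in and 32 in wild-type mice, too dim to be tested. With centred arrays, or without any 1 mouse other than knock-in mouse 3, the calls of Eif4a1, Eif4g2, Eif4g3, the dimmest Eif4e set and the dimmer Eif4enif1 set were lost (limma adjusted p = 0.0547 to 0.161), and 1 to 2 of the 18 were called higher. Without knock-in mouse 3, the brightest Eif4a1 set, the dimmest Eif4e set and the dimmer Eif4enif1 set lost theirs, and 6 were called higher.

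The 4E-binding proteins, which mTOR releases from eIF4E, were represented by 2 genes. Eif4ebp1 read 1196, 1098 and 1261 in knock-in and 850, 1010 and 867 in wild-type mice. The knock-in values all lay above the wild-type ones, and the log2 difference was 0.38 ± 0.11 (1.3-fold higher; limma adjusted p = 0.038). This call was lost with centred arrays (limma adjusted p = 0.0589) and without knock-in mouse 1 or 5 or wild-type mouse 2 or 6 (limma adjusted p = 0.104 to 0.132). Eif4ebp2 read 1629, 1526 and 2597 in knock-in and 1865, 2854 and 1832 in wild-type mice. The groups overlap, with 1 high mouse in each, and the change of -0.20 ± 0.24 was not called (limma adjusted p = 0.62; 95% interval -0.77 to 0.37). Without wild-type mouse 4 it was 0.01. The 2 changes differed by 0.58 (exact two-sided permutation test, p = 0.1, the smallest possible, for a pair picked after its values were seen). Of 16 tested probe sets for mTOR complex genes and cap-complex regulators, 3 were called higher and 4 lower. Of all tested probe sets, 15.0% were called higher and 10.9% lower. Mtor itself read 559, 525 and 675 in knock-in and 935, 1025 and 1062 in wild-type mice (-0.77 ± 0.12; limma adjusted p = 0.0042), and Deptor, of an mTOR inhibitor, fell by 0.60 (SE 0.12; limma adjusted p = 0.010). Mknk2, of a kinase that phosphorylates eIF4E, read 3319, 2455 and 4285 in knock-in and 1196, 1571 and 1352 in wild-type mice (1.25 ± 0.20; limma adjusted p = 0.0047). The mTOR brake genes Ddit4 and Tsc1 were higher (3.92 ± 0.29 and 0.65 ± 0.15; limma adjusted p = 0.00036 and 0.018), Tsc1 not without knock-in mouse 1 or wild-type mouse 4 or 6 (limma adjusted p = 0.0565 to 0.0583). Tbc1d7, of a partner of the Tsc proteins, changed by -0.77 ± 0.20 (limma adjusted p = 0.027), and not past the threshold without knock-in mouse 1 or 3 (limma adjusted p = 0.0575 to 0.0905). The remaining lower call, named after its value was seen, was Pdcd4, of an eIF4A inhibitor (-0.56 ± 0.17; limma adjusted p = 0.045), lost without knock-in mouse 1 or 3 or wild-type mouse 2 or 4, with quantile normalization, no filter or array weights (limma adjusted p = 0.0509 to 0.142). The number of this list called lower was 2 without knock-in mouse 1 or 3, and the number higher was 2 without knock-in mouse 1 or wild-type mouse 4 or 6.

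At the step where the subunits join, Eif5 rose. Its product triggers GTP hydrolysis by eIF2 once the start codon is found. It read 4857, 4186 and 4389 in knock-in mice, against 3350, 2784 and 3059 in wild-type mice, well apart, giving a log2 difference of 0.55 ± 0.10 (1.46-fold higher; limma adjusted p = 0.0072). Eif5b, of the factor that joins the large subunit, changed by 0.07 ± 0.10. Eif6, whose product keeps free large subunits from joining, read 1312, 1278 and 1350 in knock-in and 1380, 1418 and 1482 in wild-type mice, without overlap, but its change of -0.12 ± 0.08 was not called (limma adjusted p = 0.37). Eif5a, of the hypusine-bearing factor that helps ribosomes through difficult peptide bonds, changed by 0.08 ± 0.12 and -0.02 ± 0.13 at its 2 probe sets, and Eif5a2 by 0.01 ± 0.09. Of 7 tested probe sets for hypusine and diphthamide enzymes, which modify eIF5A and eEF2, Dph7 and Dph3 were called higher (0.53 ± 0.09 and 0.41 ± 0.09; limma adjusted p = 0.0050 and 0.017) and 0 lower. Of all tested probe sets, 15.0% were called higher and 10.9% lower. The Dph3 call was lost without knock-in mouse 1 or wild-type mouse 2 (limma adjusted p = 0.0548 to 0.0666), which left 1.

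The elongation factors changed little, while the kinase gene of eEF2 fell. Eef1a1, of the main tRNA-delivering factor, read 14997, 15305 and 15742 in knock-in mice, against 13906, 14596 and 14333 in wild-type mice. The values do not overlap, but the change of 0.10 ± 0.05 was not called (limma adjusted p = 0.19; 95% interval -0.02 to 0.23). Eef2, of the translocase, read 11268, 10382 and 11681 in knock-in and 9134, 9427 and 9592 in wild-type mice (0.24 ± 0.07; 1.18-fold; limma adjusted p = 0.032). This was the 1 call among the 6 elongation factor probe sets (16.7%, against 25.9% of all tested probe sets). It was lost with quantile normalization, centred arrays or no trend (limma adjusted p = 0.0613 to 0.0801) and without any 1 mouse other than knock-in mouse 3 (limma adjusted p = 0.0662 to 0.108). Eef1b2, of the nucleotide exchange factor of eEF1A, read 1972, 1978 and 2364 in knock-in and 1776, 2002 and 1799 in wild-type mice, which overlap (0.17 ± 0.11; limma adjusted p = 0.28). Eef1d, of another exchange subunit, read 227, 251 and 275 in knock-in and 234, 256 and 275 in wild-type mice, nearly the same range (-0.02 ± 0.11). Eef1a2, whose product replaces eEF1A1 in muscle and neurons, read 178, 158 and 164 in knock-in and 135, 175 and 136 in wild-type mice (0.16 ± 0.12). Eef1e1, of a protein of the aminoacyl-tRNA synthetase complex, read 597, 749 and 643 in knock-in and 512, 501 and 534 in wild-type mice, with no overlap (0.35 ± 0.11; limma adjusted p = 0.055). It passed with a filter at the 50th percentile or no trend (limma adjusted p = 0.0429 and 0.0401).

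Eef2k encodes the kinase that phosphorylates eEF2 and slows elongation. Its brighter probe set read 109, 112 and 113 in knock-in mice, against 244, 192 and 194 in wild-type mice. The dimmer one read 106, 104 and 94 in knock-in mice, against 200, 178 and 161 in wild-type mice. In both, the knock-in mice lay close together and below every wild-type mouse. The gene fell by 0.82 (SE 0.11; 1.77-fold lower; limma adjusted p = 0.0022) and by 0.73 (SE 0.10; limma adjusted p = 0.0026) on the log2 scale, the largest falls among the members. The Eef2 change exceeded that of Eef2k by 1.06 (exact two-sided permutation test, p = 0.1, the smallest possible, for a pair picked after its values were seen). The genes of enzymes that methylate eEF1A or eEF2 were not called. Eef1akmt1 changed by -0.23 ± 0.08 (limma adjusted p = 0.076), Eef2kmt by -0.13 ± 0.08, Eef1aknmt by 0.13 ± 0.09, Eef1akmt3 by 0.08 ± 0.08 and Eef1akmt2 by 0.05 ± 0.08. The Eef1akmt1 change passed with quantile normalization or centred arrays (limma adjusted p = 0.0405 and 0.0414).

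**Figure D4:**
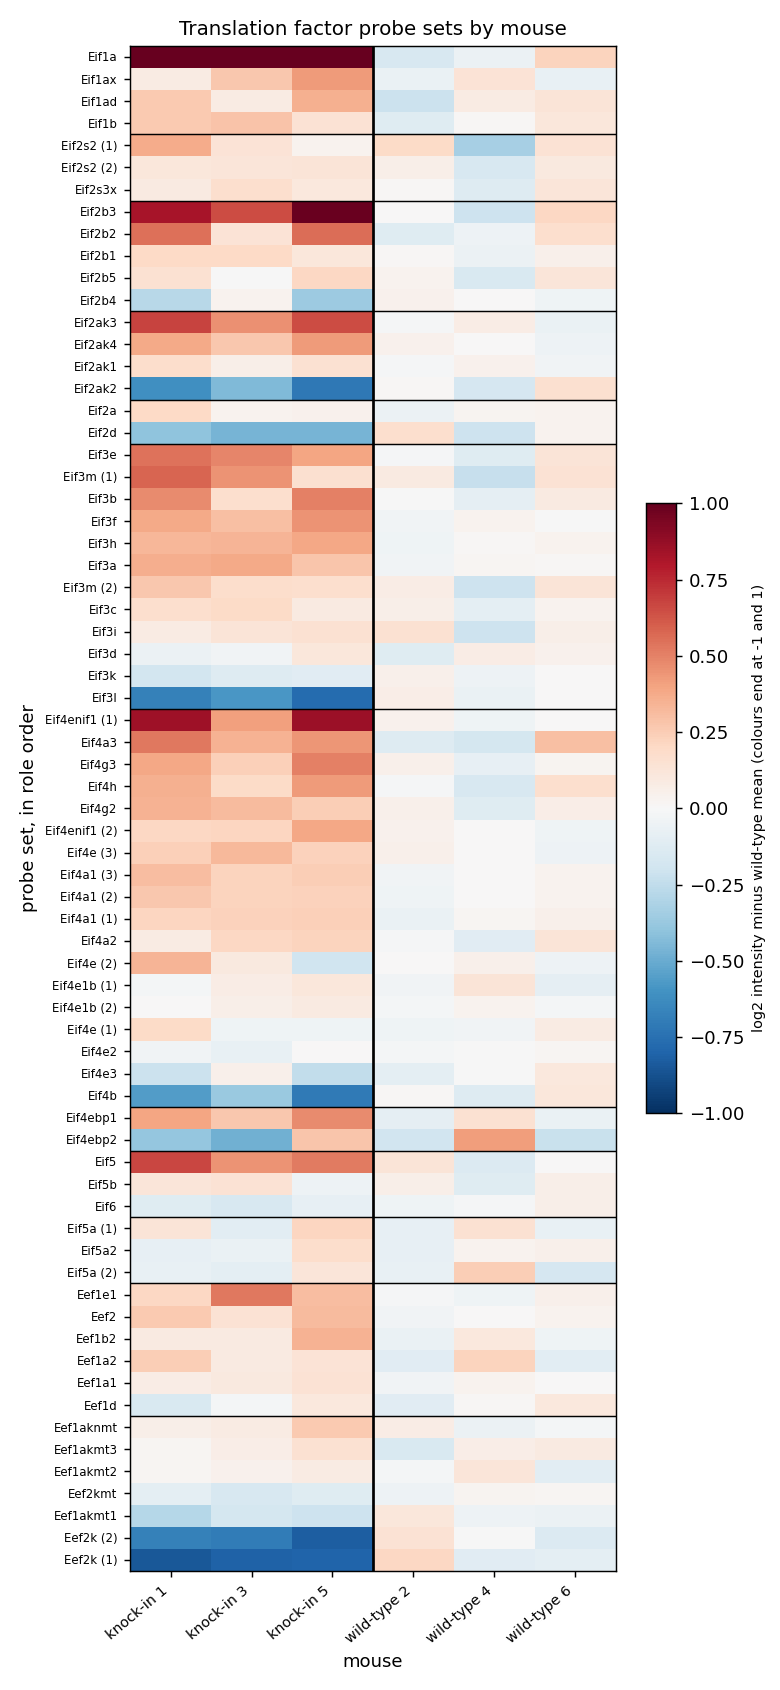
Log2 intensity of the 69 tested probe sets in each mouse, minus the mean of the wild-type mice, with knock-in mice left of the line and roles separated by horizontal lines. Colours end at -1 and 1. Eif1a is dark red and both Eef2k probe sets are dark blue in all 3 knock-in mice, while most rows are pale.

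Other steps of translation were read from lists outside the members. Of 7 tested probe sets for termination and recycling, 3 were called higher and 1 lower, against 15.0% and 10.9% of all tested probe sets. Etf1, of the release factor that reads stop codons, read 1477, 1374 and 1284 in knock-in and 906, 838 and 867 in wild-type mice (0.65 ± 0.09; limma adjusted p = 0.0032). Abce1, of the ribosome-splitting ATPase, rose by 0.52 ± 0.12 (limma adjusted p = 0.017), and Hbs1l, of a ribosome rescue factor, by 0.72 ± 0.15 at its dimmer probe set (limma adjusted p = 0.011). The brighter Hbs1l set read 2158, 2707 and 1960 in knock-in and 2106, 1554 and 1981 in wild-type mice, which overlap, and was not called (0.27 ± 0.16; limma adjusted p = 0.26). The Abce1 call was lost without knock-in mouse 1 or 5 or wild-type mouse 2 or 4 (limma adjusted p = 0.0525 to 0.0687). Pelo, of the partner of Hbs1l, was called lower (-0.26 ± 0.08; limma adjusted p = 0.044), a call lost without the filter and without any 1 mouse (limma adjusted p = 0.0540 to 0.126). Of 10 tested probe sets for mRNA-end and scanning partners, both sets of the helicase gene Ddx3x were called higher (0.81 ± 0.10 and 0.51 ± 0.08, limma adjusted p = 0.0019 and 0.0034) and 0 lower. These sets are 20% of that list, near the 15.0% of all tested probe sets called higher.

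Mitochondria translate their own mRNAs with a separate set of factors. For these, 0 of 10 tested probe sets were called higher and 5 lower (median log2 change -0.40), with both sets of Tufm among the 5. Over all tested probe sets, 15.0% were called higher and 10.9% lower. The number lower was 4 without the filter or without any 1 mouse other than knock-in mouse 3. It was 6 with quantile normalization, a stricter filter, no trend or array weights. Tufm, the mitochondrial counterpart of eEF1A, read 766, 793 and 827 in knock-in mice, against 1378, 1429 and 1307 in wild-type mice at its brighter probe set (-0.77 ± 0.09; limma adjusted p = 0.0015). The initiation factor gene Mtif2 fell by 0.69 (SE 0.13; limma adjusted p = 0.0096) and the elongation factor gene Gfm2 by 0.76 (SE 0.15; limma adjusted p = 0.0088). Gfm1 changed by -0.42 ± 0.13 (limma adjusted p = 0.047), a call lost without the filter and without any 1 mouse other than knock-in mouse 3 (limma adjusted p = 0.0631 to 0.154). Among cytosolic ribosomal protein genes, 107 of 208 tested probe sets, many of them for copies of the same gene, were called higher and 1 lower. Of all tested probe sets, 15.0% (3991) were called higher. The number of ribosomal protein sets called higher was 62 with centred arrays, 40 without knock-in mouse 1 and 65 without knock-in mouse 5. It was 53, 57 and 48 without wild-type mouse 2, 4 and 6. Over all probe sets the number higher fell too, to 3141 with centred arrays, 2427 without knock-in mouse 1 and 3058 without knock-in mouse 5. Without wild-type mouse 2, 4 and 6 it was 2612, 2953 and 2581.

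**Figure D5:**
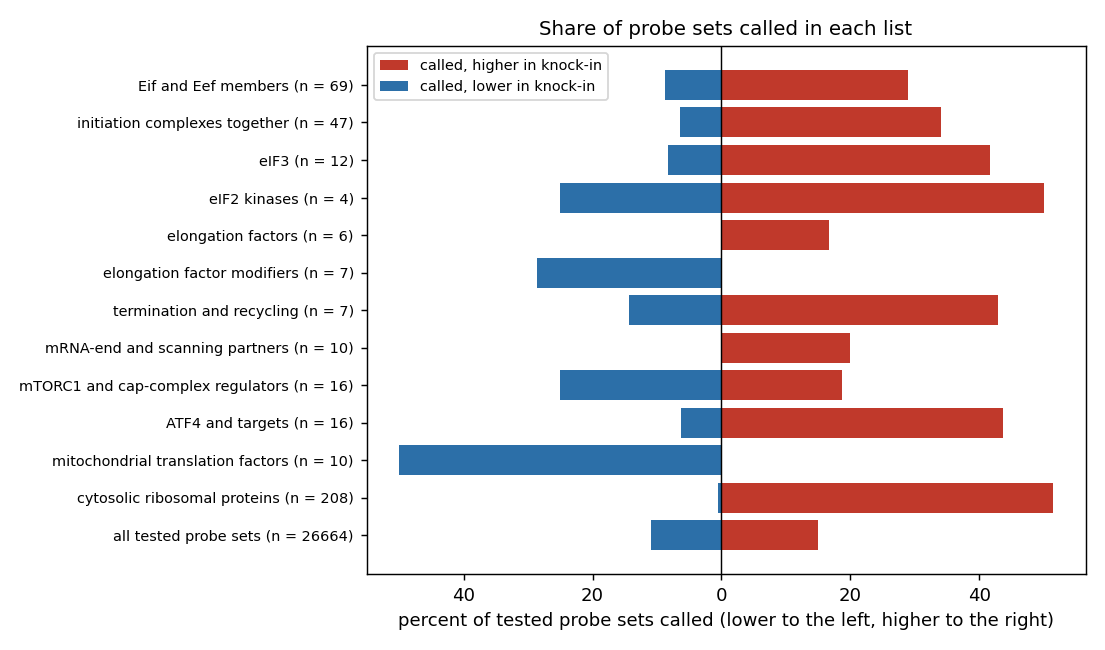
Percent of tested probe sets called higher (red, right of 0) or lower (blue, left of 0) in knock-in liver, with the number tested in brackets. Shown are the members, some of their role groups, some of the related lists and all 26664 tested probe sets. The mitochondrial translation factors and elongation factor modifiers show calls to the left and none to the right. The members show more calls on the right (20) than on the left (6).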

How the data were processed

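The members and gene lists were chosen with earlier results of these data known, and the pairs set against each other after the values were seen. Liver RNA was purified with an RNeasy kit and transcribed with a biotin label, per the labels. The authors' deposited table holds 1 intensity per probe set and array, in whole numbers. The sources used here do not give how probes were summarised and normalized. Arrays carry no read depth, and 3 per genotype limit the precision. Probe sets were named from the platform annotation, and all 70 member symbols matched the RefSeq table by gene identifier. Intensities were transformed as log2(value + 16), only probe sets whose mean reached the 25th percentile (38.7) were kept, and these were fitted with limma 3.58.1 in R 4.3.3 (eBayes with trend). The procedure was tested on simulated data. Alternatives were pseudocounts of 1 and 64, quantile normalization, centred arrays, other filters, other priors, array weights and each mouse left out. All members may be named, with values in every mouse for called members at or past 1.5-fold, kinases, 4E-binding proteins and elongation factors, and for some others picked after seeing values. Of related lists, up to 6 called members by smallest p may be named, and uncalled ones where a second probe set differed. Ribosomal proteins are given as counts. Eif1, Eif2s1, Eif3g, Eif3j1, Eif4g1, Eif4ebp3 and Eef1g had no single-symbol probe set among those used and were not analysed here. Figures were drawn with matplotlib 3.10.9.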

Additional observations from a re-analysis of the deposited data

Results flagged for a closer look

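Probe sets annotated with several symbols, an Eif or Eef symbol among them, were outside the members. Of 11 such sets 9 were called, all higher in knock-in liver, where 15.0% of all tested probe sets were called higher. The 9 sets stand out as signal in values the comparisons above do not use, and which of the genes each reports cannot be told apart. Sets that carry the same symbols are not separate evidence. The 4 that carry Eif1a together with 7 other symbols had log2 changes of 1.39, 1.63, 1.08 and 1.62 (limma adjusted p = 0.0032, 0.0011, 0.0049 and 0.0017). The set at 1.08 read 118, 67 and 110 in knock-in and 41, 32 and 38 in wild-type mice. Its wild-type mean of 37 lies below the mean intensity required for testing, so that set was tested only through its knock-in values. The set of Ankhd1 and Eif4ebp3 read 3880, 2786 and 4228 in knock-in and 908, 1195 and 1207 in wild-type mice, a log2 change of 1.69 (limma adjusted p = 0.0012). The set of Snora28 and Eif5 had 1.3 (limma adjusted p = 0.0034), and the 2 of Eif4a3l1 and Eif4a3 had 0.39 and 0.40 (limma adjusted p = 0.033 and 0.028). Of the 2 sets of Eif3j2 and Eif3j1, the dimmer had 0.45 (limma adjusted p = 0.020). The brighter had 0.33 and was not called (limma adjusted p = 0.067). The set of Mir703, Eef1a1 and D630045J12Rik had 0.08 and was not called either (limma adjusted p = 0.62).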

How the results depend on the processing

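No paired analysis was possible because the knock-in and wild-type mice share no replicate numbers. Of the 26 member calls, 11 held under all 15 alternatives and 16 under the 9 that kept 6 arrays. With centred arrays 10 members were called higher, the median of all members was 0.10 and that of the initiation complexes 0.15, while the median of all tested probe sets was -0.02, where it was 0.03 uncentred. With a pseudocount of 64 the median of all members was 0.12. With 1 mouse left out, 4237 to 7750 probe sets were called, 6 to 19 members were called higher and 5 to 6 lower. The medians ranged from 0.12 to 0.17 for all members, 0.14 to 0.24 for initiation complexes, 0.19 to 0.31 for eIF3, 0.22 to 0.28 for eIF2 kinases, -0.05 to 0.23 for 4E-binding proteins and 0.12 to 0.24 for elongation factors. The causes were not tested. Signs turned in 9 probe sets, all uncalled. Centring lowers every change by the same amount, so its sign turns are not about single genes. With it, Eef1akmt2 was -0.0022, Eif3d -0.045, Eif4e -0.018 and Eif5a2 -0.042. With quantile normalization Eif4e1b was -0.0019, Eif5a 0.022 and Eif5a2 -0.041, and with array weights Eif3d was -0.0096, Eif5a 0.045 and Eif5a2 -0.022. With 1 mouse left out, Eef1akmt2 lay between -0.0018 and 0.11, Eef1d between -0.087 and 0.043, Eif3d between -0.053 and 0.045, Eif4e between -0.048 and 0.22 and between -0.047 and 0.075 at its 2 brighter sets, Eif4ebp2 between -0.43 and 0.011, Eif5a between -0.10 and 0.11 and Eif5a2 between -0.074 and 0.056.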

Other observations

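Several uncalled genes had their highest knock-in value in knock-in mouse 5 and their highest wild-type value in wild-type mouse 4. Eif4ebp2 read 2597 in knock-in mouse 5 and 2854 in wild-type mouse 4, where the other 4 mice lay between 1526 and 1865. The brighter Eif5a set read 2301 in knock-in mouse 5 and 2202 in wild-type mouse 4, each the highest of its genotype, and the dimmer set read 1513 and 1652 in those mice. Eef1b2 (2364 and 2002) and the poly(A)-binding protein gene Pabpc1 (3850 and 3914) were also highest in knock-in mouse 5 and wild-type mouse 4 within their genotypes. These genes were picked after their values were seen, the share of all probe sets with this pattern was not counted, and no test was made.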
